A study of Drosophila melanogaster with 3 samples.

Results

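In Drosophila melanogaster embryos, 234 regions bound by Aef1-eGFP had their summit just inside a gene, 1 to 500 bp downstream of the nearest start of a protein-coding transcript. The regions were chosen by the peak calls and by summit position. Peaks of the replicates that overlapped by at least 1 bp were merged, regions with peaks from 2 or more replicates were kept, and the strongest peak of each replicate in a region gave 1 summit, of which the median was taken. Summits between a minus-strand start on the left and a plus-strand start on the right, both within 500 bp, were left out. The 234 regions were 7.88% of the 2969 regions seen in 2 or more replicates (exact Clopper-Pearson 95% interval 6.94 to 8.91%) and 14.8% of the 1577 regions at promoters. The other promoter regions were 804 on the upstream side of their nearest start, called upstream regions here, 538 between divergent starts, and 1 with its summit on the start base itself. A further 1392 regions lay away from promoters.

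The study holds 1 group of 3 biological replicates, which were whole embryos of 0 to 24 h from flies carrying a transgene that encodes Aef1 fused to enhanced green fluorescent protein (eGFP). Chromatin was sheared by sonication to fragments of 200 to 800 bp and precipitated with an antibody against GFP, as the sample descriptions say, although another label field lists the antibody as Aef1. The labels do not say which promoter drives the fusion or whether the flies keep unfused Aef1, the embryos span many stages and tissues, and no input, untagged or mutant sample was analysed here. Each replicate has a list of peaks, made by the authors and held to an irreproducible discovery rate (IDR, a measure of how well the rank of a peak repeats between peak calls) of about 0.01. The depth of the libraries is unknown.

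Aef1, adult enhancer factor 1, is a zinc finger protein known to bind DNA with the word CAACAA and first described at enhancers of the Adh and yolk protein genes. The first stretch of a gene holds the 5′ untranslated region (5′ UTR), which is transcribed but precedes the coding sequence, and often a first intron. Core promoter elements such as the initiator and the downstream promoter element lie at or just inside the start in flies, and regulatory elements in first introns are common. A protein that binds DNA can contact a word on either strand, whereas a protein that binds RNA would meet the coding strand.

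The word CAACAA was the sequence that set the summits of these regions apart from their surroundings, so the clearest cases are shown before the values. The following 10 sites of 30 bases hold a run of 3 or more CAA copies and, among regions on the arms printed here, lie nearest to their summit. Each is written 5′ to 3′ along the gene's coding strand, from the dm6 reference, with the run in capitals (TTG copies are CAA copies of the other strand).
sws, chrX:7967740-7967769, minus strand: gcgacggtggCAACAACAAagggctgtgat
Mad, chr2L:3159307-3159336, minus strand: gttgttattcTTGTTGTTGttattattgtt
bab2, chr3L:1177189-1177218, minus strand: gaaagccagCAACAACAACAAtaataccca
CLIP-190, chr2L:17385366-17385395, plus strand: caaaataaagCAACAACAAaagtggaacag
CG32813, chrX:1380966-1380995, plus strand: aagcagagtgTTGTTGTTGccgttgccgtt
fal, chr3L:19295032-19295061, plus strand: cccgctttccCAACAACAActacaacagca
Akt, chr3R:16099484-16099513, plus strand: cagcagcagCAACAACAACAAtagcaagca
scrib, chr3R:26536352-26536381, plus strand: ctgcaaagagTTGTTGTTGcgcgcgggcgg
CG12991, chrX:17579974-17580003, plus strand: tgtcgaaTTGTTGTTGTTGTTGgtaaaaac
CycA, chr3L:11833185-11833214, minus strand: cagcacaaaaCAACAACAAcggcagcagca

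The run of sws, which encodes a phospholipase of the neuropathy target esterase family, was centred on the summit 481 bp downstream of the start. The peak signals there, which are the authors' values on a scale that is not stated, were 103, 112 and 129 in replicates 1, 2 and 3. At CLIP-190, which encodes a protein of microtubule plus ends, the run lay 2 bp from a summit 367 bp downstream of the start, with signals of 135, 100 and 162. Runs also lay within 7 bp of the summits at Akt, the kinase of insulin signalling, at CycA, which encodes cyclin A, and at scrib, which encodes a scaffold of epithelial polarity. Signals were 54.6, 41.8 and 36.8 at Akt and 76.7, 56.4 and 72.9 at scrib, and CycA had 69.3 and 59.2 in replicates 1 and 2 and no listed peak in replicate 3. Of these 10 sites, that of Mad, which encodes the Smad protein of the fly BMP pathway, was in an intron, and the others were in 5′ UTRs. The weakest by rank were Akt and Mad, whose mean rank fractions were 84.6% and 81.6% of the way down the lists, and the strongest were CLIP-190 at 18.4% and sws at 22.1%.

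For some regions in introns the 101 bases centred on the summit hold no exon, and 5 such windows are shown, with and without the word. The first 3 hold CAACAA in tandem (all copies in capitals), and the last 2, of Cftr and aru, were picked from the 20 strongest regions and hold no copy on either strand.
CG3529, chr3L:9447275-9447375, plus strand: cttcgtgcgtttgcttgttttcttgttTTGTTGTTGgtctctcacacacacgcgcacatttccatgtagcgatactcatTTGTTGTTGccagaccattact
MEP-1, chr3L:2636190-2636290, plus strand: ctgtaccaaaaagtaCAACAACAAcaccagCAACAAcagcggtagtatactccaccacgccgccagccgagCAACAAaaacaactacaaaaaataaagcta
shep, chr3L:5248061-5248161, minus strand: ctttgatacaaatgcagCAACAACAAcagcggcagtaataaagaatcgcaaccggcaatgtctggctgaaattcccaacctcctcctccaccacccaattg
Cftr, chr3R:24543176-24543276, minus strand: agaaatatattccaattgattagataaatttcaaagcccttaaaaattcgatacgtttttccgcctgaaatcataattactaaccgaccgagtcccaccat
aru, chr2L:867463-867563, minus strand: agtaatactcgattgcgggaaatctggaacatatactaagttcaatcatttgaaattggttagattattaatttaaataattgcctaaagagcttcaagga

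CG3529 carries a tandem run on each side of its summit, and MEP-1, which encodes a zinc finger protein that acts with the remodeler Mi-2, holds 3 separate copies or runs. Their signals were modest, at 90 and 57.4 in replicates 1 and 3 for CG3529 and at 45 and 63.1 for MEP-1, with no listed peak of either in replicate 2. At shep, which encodes an RNA-binding protein, signals were 61, 47.2 and 44.1. Cftr, the fly relative of the CFTR chloride channel, had signals of 236, 193 and 167, and aru, which encodes a protein of the EPS8 family, had 230, 209 and 123.

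Summits gathered close to the start and thinned out further into the gene. The distance from the start had a median of 135 bp and quartiles of 51 and 348 bp, and 101 of 234 summits (43.2%) lay within 100 bp. The following steps of 100 bp held 35, 22, 39 and 37 summits, so the number did not fall steadily toward 500 bp. The replicates gave like positions, with medians of 135, 128 and 130 bp for the own summits of replicates 1, 2 and 3 within these regions. The own summits of a region were spread over a median of 26.5 bp, and in 200 of 234 regions every replicate's own summit lay 1 to 500 bp downstream of the start. In the other regions at least 1 replicate's summit crossed a limit, as at CG9147, where the summits of replicates 1 and 2 lay 12 and 21 bp downstream and that of replicate 3 lay 5 bp upstream. Distance was set by the choice of regions and is given as a description.

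**Figure D1:**
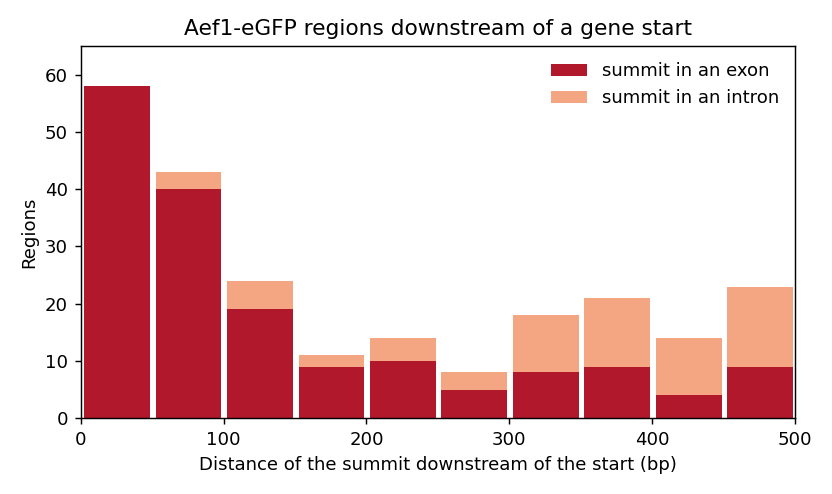
Number of regions (vertical axis) by distance of the summit downstream of the nearest transcript start in steps of 50 bp (horizontal axis), with exonic and intronic summits stacked. The first step holds 58 regions, all exonic, and introns hold 14 of the 23 regions in the last.

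The summit lay in a 5′ UTR in 166 of 234 regions (70.9%, exact 95% interval 64.7 to 76.7%), in an intron in 63 (26.9%, 21.4 to 33.1%) and in coding sequence in 5 (2.14%, 0.697 to 4.92%). All transcripts of the gene were pooled for this. A summit counted as 5′ UTR where any transcript had it there, and as intron only where no transcript had an exon. Summits in 5′ UTRs lay a median of 84 bp from the start, and those in introns a median of 365 bp. The regions had a median width of 332 bp, so many reach across the start or an exon end even where the summit does not. The limits of the choice cut through a continuous row of peaks. Just inside the start were RpS7 (1 bp), which encodes a ribosomal protein, CG5001 (2 bp) and Abp1 (2 bp), which encodes an actin-binding protein. Just outside were Dyb (0 bp), scny and RpS29 (each 1 bp upstream). At the far limit Sec13 (498 bp), pAbp (499 bp) and aru (500 bp) were inside, and CG31612 and Ankle2 (each 502 bp) were outside.

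A further start of the same gene lay within 1000 bp downstream of the summit for 61 of the 234 regions (26.1%), so these summits were downstream of one start and upstream of another. Another start than the nearest lay as close downstream of 132 of the 804 upstream regions (16.4%), a lower share (Fisher's exact test, two-sided, adjusted p = 0.0023). Which start is nearest also decided which set a region joined, so the choice of regions bears on this comparison and its p-value. The difference was lost at an IDR of 0.001 (1.44 times, Fisher's exact test, adjusted p = 0.0627) and with a promoter limit of 1000 bp (1.03 times, adjusted p = 0.857). The ratio was 2.45 with a limit of 250 bp and 3.19 with 1 start per gene. A first intron longer than 1000 bp followed the start of 110 regions (47%), against 369 of 804 (45.9%, Fisher's exact test, adjusted p = 0.766).

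The regions had lower median signals than other promoter regions, and a smaller share of them was listed in 3 replicates. Peaks came from 3 replicates in 145 of 234 (62%), against 580 of 804 upstream regions (72.1%) and 417 of 538 between divergent starts (77.5%). The difference to upstream regions was -10.2 percentage points, and -2.08 with 1 start per gene. Replicates 1, 2 and 3 had a peak in 215, 190 and 208 of the 234. Of the 89 regions with peaks from 2 replicates, 84 overlapped a peak in the third replicate's longer ranked list. In 216 of 234 the region also overlapped a peak in each of the authors' 4 lists for the whole series. Median signals were 72.4, 60.9 and 67.5 in replicates 1, 2 and 3, against 92.2, 75.5 and 75.5 for upstream regions. Ranks counted from the strongest peak as a percentage of each list had a median of 55.3% (quartiles 36.2 and 73.3%), against 44.7% for upstream regions and 40.6% between divergent starts. Across regions, which are not independent replicates, the Spearman correlation of signal was 0.825 for replicates 1 and 2 (171 regions), 0.744 for 1 and 3 (189) and 0.77 for 2 and 3 (164). Strength and number of replicates entered the choice of regions and were not tested.

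The strongest region was at PNPase, which encodes a polynucleotide phosphorylase of mitochondria. Its summit lay in the 5′ UTR, 79 bp downstream of the start, and its signals were 885, 640 and 558, which put it in the top 0.315%, 0.672% and 0.714% of the lists. GstE13, a glutathione S-transferase gene, followed with 670, 653 and 601 at 83 bp, and CG8320 with 586, 654 and 596 at 73 bp in an intron. CG9147 had signals of 620, 471 and 424 and tank of 452, 429 and 431. Replicate 1 gave the highest signal at PNPase, GstE13, CG9147 and tank, and replicate 2 at CG8320. Trmt6, which encodes a subunit of a tRNA methyltransferase, had 348, 326 and 312 at 83 bp. At ph-p, which encodes a subunit of the Polycomb complex PRC1, signals were 331, 344 and 267 at a summit 482 bp downstream of the start. At Eip75B, an ecdysone-induced nuclear receptor gene, they were 315, 195 and 231 at 93 bp. The 20 strongest also held CG9399, CG18622, CG4497, CG10413, Cftr, egh, CG8128, CG2811, Ufsp1, aru, Vti1b and Trpm, whose products include an enzyme of glycosphingolipid synthesis (egh), a protease of the ubiquitin-like protein Ufm1 (Ufsp1), a SNARE protein of membrane fusion (Vti1b) and a cation channel (Trpm). Of all 234 regions, 16 (6.84%) had a mean rank within the strongest 10% of the lists.

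**Figure D2:**
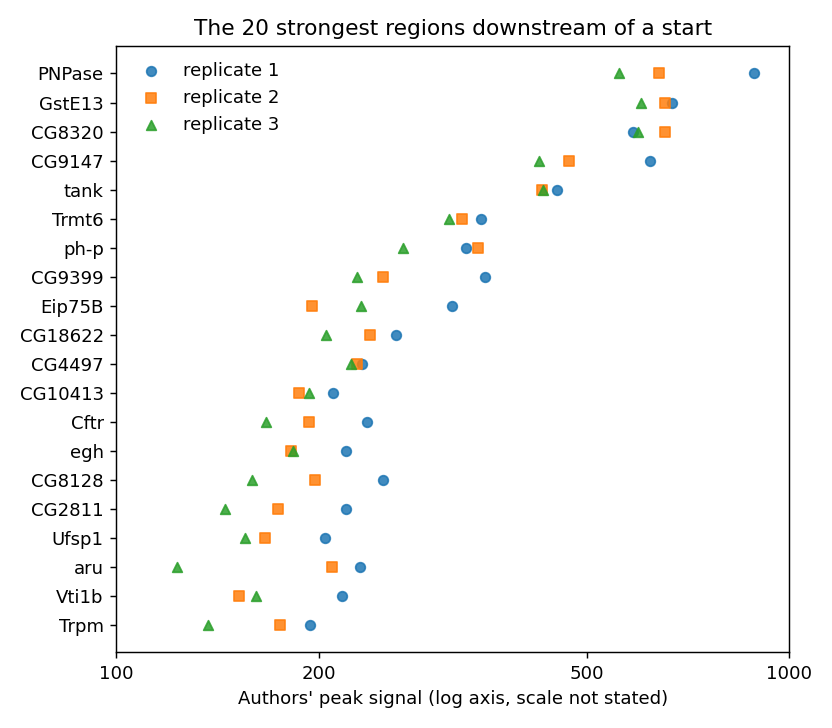
Authors' peak signal on a log axis (horizontal) of the 20 regions with the lowest mean rank, 1 line per gene and 1 symbol per replicate. Signals run from 885 at PNPase in replicate 1 down to 123 at aru in replicate 3.

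CAACAA stood within 50 bp of the summit, on either strand, in 104 of 234 regions (44.4%, exact 95% interval 38 to 51.1%). Windows of the same 101 bp centred 500 bp upstream held it in 28 regions (12%) and those 500 bp downstream in 38 (16.2%). The summit share was 3.15 times the mean of the flanks (exact McNemar test against each flank, two-sided, the larger p kept, adjusted p = 7.65e-11). CAACAACAA, 3 CAA copies in a row and called the tandem here, stood at 49 summits (20.9%, 15.9 to 26.7%). The upstream and downstream flanks held it in 3 and 7 regions, so the summit share was 9.8 times their mean (exact McNemar test, adjusted p = 1.25e-09). Of 19 motifs compared between summit and flanks, these 2 passed at an adjusted p under 0.05 (10.5% of those tested). Every window with the tandem also holds CAACAA, so the 2 are nested. The permuted words AACCAA and CAAACA, made of the same letters as CAACAA, stood at 17 and 30 summits against 19 and 23 upstream and 15 and 15 downstream (exact McNemar tests, adjusted p = 1 for both). At an IDR of 0.05, however, CAAACA also passed against the flanks. Against regions between divergent starts CAAACA passed without replicate 1 and in windows of 100 bp. Regions were counted as independent in these and the following tests, so the p-values cover counting error over regions, not spread between replicates.

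**Figure D3:**
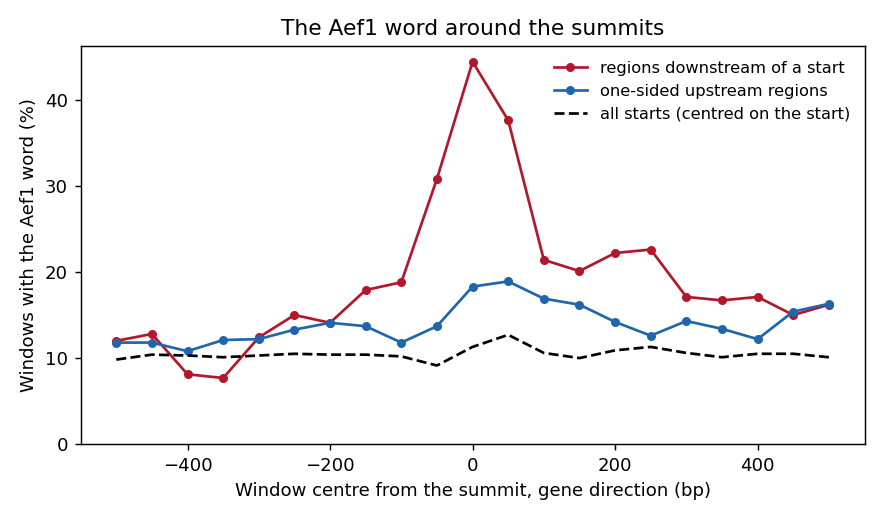
Share of windows of 101 bp that hold CAACAA, the Aef1 word (vertical axis), by position of the window centre in the gene's direction (horizontal axis), around the summits of the 234 regions and of the 804 upstream regions and around all 19253 starts. The regions downstream of a start rise from 12% at -500 bp to 44.4% at the summit, upstream regions reach 18.9% and starts 12.7%.

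The word was also more frequent at these summits than at other bound promoter summits. Upstream regions held CAACAA in 147 of 804 (18.3%, 15.7 to 21.1%), so the share downstream of the start was 2.43 times as high (Fisher's exact test, two-sided, adjusted p = 9.89e-14). Regions between divergent starts held it in 61 of 538 (11.3%), so the share downstream was 3.92 times theirs (two-sided exact test, adjusted p = 6.29e-22). The tandem stood in 44 upstream regions (5.47%, ratio 3.83, two-sided exact test, adjusted p = 3.38e-10) and in 7 regions between divergent starts (1.3%, ratio 16.1, adjusted p = 2.42e-19). Regions away from promoters held CAACAA in 16.7% and the tandem in 4.67%. Windows centred 135 bp downstream of all 19253 annotated starts held CAACAA in 9.92% and the tandem in 1.01%. In 12 alternative settings the ratio to upstream regions ran from 1.82 to 2.68 for CAACAA and from 2.51 to 4.18 for the tandem, with every adjusted p under 0.05.

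Each replicate taken alone showed the same order. Replicate 1 listed 283 peaks with their own summit downstream of a start and held CAACAA in 42.8% of them, against 17.8% of its upstream peaks. Replicate 2 held it in 39.3% of 224 peaks against 16.9%, and replicate 3 in 44.8% of 279 against 18.8%. The downstream share was 42.3% ± 2.79 (SD, n = 3), the upstream share 17.8% ± 0.953 and the share between divergent starts 10.9% ± 0.826. The difference between downstream and upstream peaks was 25, 22.4 and 26 percentage points in the 3 replicates, so the lowest downstream value lay above the highest upstream value. The tandem was in 15.2%, 17% and 21.5% of downstream peaks and in 5.22%, 5.39% and 6.83% of upstream peaks.

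**Figure D4:**
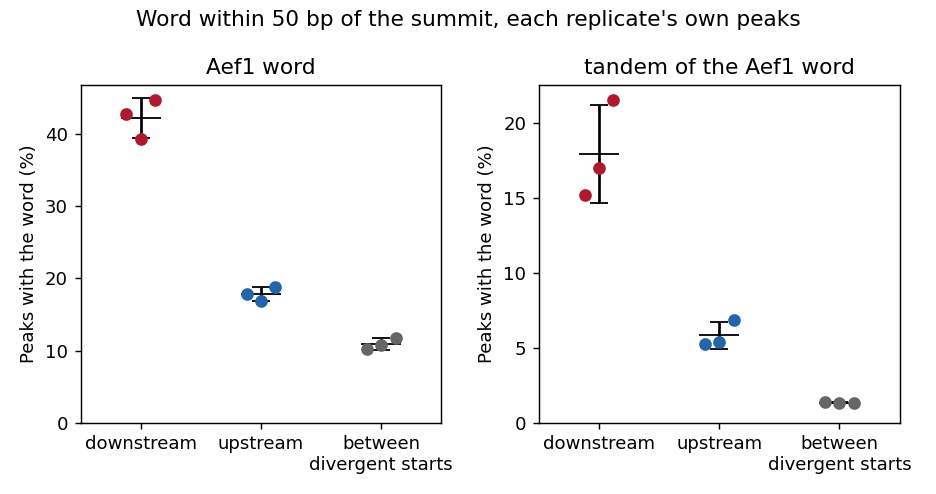
Share of each replicate's own peaks with CAACAA, the Aef1 word (left), or with CAACAACAA, the tandem of 3 CAA copies (right), within 50 bp of the summit, by position of the peak. Points are replicates 1 to 3 from left to right and bars the mean and SD, and the downstream points lie above all others in both panels.

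Regions with a peak in only 1 replicate were outside the choice of the 234 and served as a second set, compared after the main values were known. Of 135 such regions downstream of a start 62 held CAACAA (45.9%, 37.3 to 54.7%), against 44 of 287 upstream (15.3%, 11.4 to 20%), a ratio of 3 (Fisher's exact test, two-sided, p = 5.88e-11). The share by replicate was 41.5%, 28.6% and 59.3% downstream and 18.1%, 6.41% and 20% upstream for regions found in replicate 1, 2 or 3 alone. The tandem stood in 26 of 135 (19.3%) against 18 of 287 (6.27%, Fisher's exact test, p = 1.16e-04). By replicate its share was 9.43%, 14.3% and 31.5% downstream and 6.25%, 1.28% and 12.3% upstream. Without the regions of replicate 3 the tandem stood in 9 of 81 downstream (11.1%) and 10 of 222 upstream (4.5%), which missed the threshold (Fisher's exact test, p = 0.0568), whereas CAACAA stood in 37% against 14% (exact p = 3.41e-05).

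Against upstream regions, 4 of 19 motifs differed at an adjusted p under 0.05 (21.1%). Besides CAACAA and its tandem, the letters TATAAA, which the TATA box-binding protein recognises, were less frequent at the summits, at 12% against 22.1% (Fisher's exact test, two-sided, adjusted p = 0.00253). A CA repeat, CACACACA, was more frequent, at 6.41% against 1.62% (two-sided exact test, adjusted p = 0.00179). Each of the latter differences was lost in some settings, both of them among regions in 3 replicates, without replicate 1 and in windows of 25 bp, while CAACAA and its tandem passed in each. Windows centred 135 bp downstream of all starts held TATAAA in 8.4% and the CA repeat in 2.5%. The upstream and downstream flanks of the 234 regions held TATAAA in 11.5% and 7.69%, and the CA repeat in 1.71% and 5.13%. Neither word passed against the flanks. Against regions between divergent starts, 6 of 19 differed (31.6%), adding GAGAGAG, the word of the GAGA factor Trl, at 3.42% against 0.372% (two-sided exact test, adjusted p = 0.00609), and fewer runs of 8 A (adjusted p = 0.0152). The call for runs of 8 A was lost in 9 of 12 alternatives, among them without replicate 1 or without replicate 3, and that for GAGAGAG in 2, a promoter limit of 250 bp and windows of 25 bp. Base composition differed too: the 101 bp at the summit were 42.5% ± 9.94 G or C (SD over 234 regions), against 35.4% ± 10.4 in upstream regions and 31.8% ± 9.19 between divergent starts. The flanks of the 234 regions were 39.8% upstream and 46.1% downstream. The part of base composition in the motif differences was not tested.

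A scan of all 2080 words of 6 bases, both strands together and run after the motif results were known, gave the same leading word. Compared with upstream regions 47 words were more frequent (2.26% of the words, adjusted p under 0.05 by Fisher's exact test) and 31 less frequent (1.49%). The leading word by p was CAACAA. Next came the word ACAACA (40.6% against 16.2%). The third word, AACAAC (38.9% against 15.3%), like the one before it, is a shifted reading of the same repeat. CAACAG (16.2% against 5.1%) and CAGCAA (19.2% against 6.97%) followed among the higher words. The words ATAAAT (7.69% against 26.6%) and AAATAT (11.5% against 31.8%) led the lower ones. Against both flanks 3 words passed (0.144%), and they were these 3 readings of the repeat. CAACAG did not pass there, nor did CAGCAA (exact McNemar tests, adjusted p = 1 for both).

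CAACAA was more frequent where the summit lay in an exon than where it lay in an intron. It stood in 87 of 171 exonic summits (50.9%, 43.1 to 58.6%) and in 17 of 63 intronic summits (27%, 16.6 to 39.7%), a ratio of 1.89 (Fisher's exact test, two-sided, p = 0.00111). The tandem stood in 42 exonic (24.6%) and 7 intronic summits (11.1%, Fisher's exact test, p = 0.0292). The call for CAACAA ended with 1 start per gene (ratio 1.41, exact p = 0.109) and with a promoter limit of 250 bp (ratio 1.63, p = 0.277). Since exonic summits lie nearer to the start, the shares were also taken by distance: beyond 200 bp CAACAA stood in 27 of 45 exonic (60%) and 15 of 53 intronic summits (28.3%), and within 200 bp in 60 of 126 (47.6%) and 2 of 10 (20%). Over steps of 100 bp from the start the share was 50.5%, 31.4%, 36.4%, 48.7% and 40.5%, with intervals that overlapped.

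Regions with a further start of the gene within 1000 bp downstream held CAACAA less often, in 16 of 61 (26.2%, 15.8 to 39.1%), than those without, in 88 of 173 (50.9%, 43.2 to 58.5%; Fisher's exact test, two-sided, p = 9.38e-04). A start of another gene pointing away on the upstream side accompanied 51 regions, of which 29 held the word (56.9%), against 75 of the other 183 (41%, Fisher's exact test, p = 0.0556). These 2 splits were made after the main values were known.

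The word was less frequent in the strongest regions than in the others. With the 234 regions in 4 bins by mean rank, CAACAA stood in 13 of 59 of the strongest bin (22%, 12.3 to 34.7%), 29 of 58 of the second (50%), 35 of 58 of the third (60.3%) and 27 of 59 of the weakest (45.8%, 32.7 to 59.2%). The tandem stood in 5.08%, 24.1%, 25.9% and 28.8% of the same bins. Of the 20 strongest regions 3 held CAACAA, those of CG8320, Eip75B and CG4497, and none held the tandem (exact 95% interval 0 to 16.8%). At PNPase, GstE13, tank and ph-p no copy lay within 50 bp of the summit. Upstream regions held CAACAA in 15.4% of their strongest bin and 18.9% of their weakest, with 201 regions in each. Because the peak signal chose the regions, this order is a description.

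**Figure D5:**
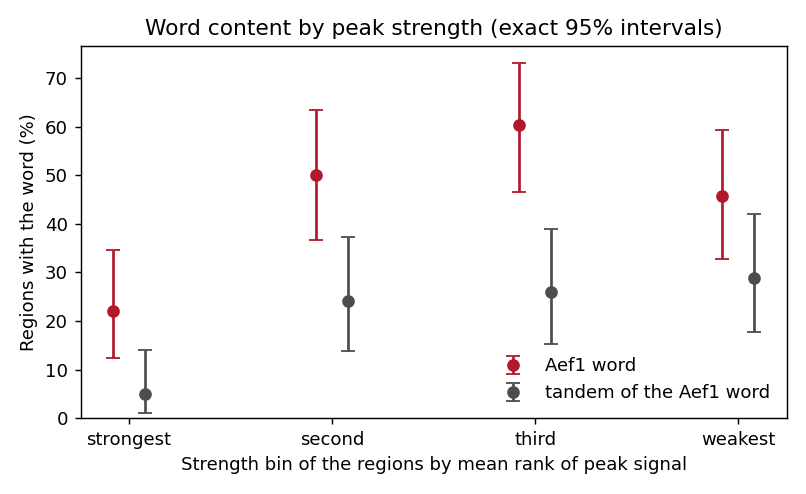
Share of regions with CAACAA, the Aef1 word, or CAACAACAA, its tandem, within 50 bp of the summit (vertical axis) by bin of peak strength, from the strongest to the weakest (horizontal axis), with exact 95% intervals. CAACAA stands in 22% of the strongest bin and in 45.8% to 60.3% of the others.

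Among regions with the word on 1 strand only, 61 had it on the coding strand and 37 on the other (62.2% coding, p = 0.0197 by a two-sided exact binomial test of equal shares). Upstream regions had 63 and 75 (45.7% coding, Fisher's exact test between the 2 sets, two-sided, p = 0.0125). The excess over an even split was lost in 7 of 12 alternatives, including the removal of any 1 replicate, where the share was 54.1% to 59.4%. It was also no higher than at starts in general, since 63.6% of all windows 135 bp downstream of a start with the word on 1 strand had it on the coding strand. The 49 tandem runs were 35 of 3 copies, 9 of 4, 4 of 5 and 1 of 6, and 30 lay on the coding strand and 19 on the other. The longest run was in the 5′ UTR of S6KL, a kinase gene, with signals of 43 and 39.4 in replicates 1 and 2. The run centre lay a median of 18.5 bp from the summit, and 31 of 49 lay within 25 bp.

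Seen from the sequence, few runs of the word near starts had the summit of a region within 50 bp, which is called bound here. A run farther from a summit counts as not bound, even where a region covers it. The 6 arms held 15025 runs of 3 or more CAA copies, of which 1271 lay 1 to 500 bp downstream of their nearest start. A summit of a region in 2 or more replicates lay within 50 bp of 79 of these (6.22%, 4.95 to 7.69%), against 37 of 669 upstream runs (5.53%, 3.92 to 7.54%; Fisher's exact test, two-sided, p = 0.615) and 85 of 13052 away from promoters (0.651%). Between divergent starts there were 33 runs, of which 5 were bound (15.2%, 5.11 to 31.9%). The difference between the 2 sides of the start did not pass the test (ratio 1.12), and there were more runs downstream. Runs within 100 bp of the start were bound in 38 of 237 cases (16%, 11.6 to 21.3%) and those 101 to 500 bp away in 41 of 1034 (3.97%, 2.86 to 5.34%). Bound shares were 66 of 743 in 5′ UTRs (8.88%), 10 of 252 in introns (3.97%) and 3 of 271 in coding sequence (1.11%), and the first 2 differed (Fisher's exact test, p = 0.00914). The shares by place were not split by distance from the start, so place and distance cannot be told apart here. Runs on the coding strand were bound in 5.14% and those on the other strand in 8.78% (Fisher's exact test, p = 0.0212). The order held in 5′ UTRs, at 7.14% against 12.9%, and was the opposite in introns, at 5.04% against 3.01%, and these splits by place were not tested. These counts of runs were planned after the main values were known, and their p-values are not adjusted.

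Among core promoter elements at the starts, DRE was the exception that passed the test. Of 10 elements searched at their usual place, 1 (10%) differed from the starts of upstream regions: TATCGATA, the DNA replication-related element (DRE) that Dref binds, stood in the 100 bp before the start at 21 of 234 (8.97%) against 30 of 802 (3.74%, Fisher's exact test, two-sided, adjusted p = 0.029). All annotated starts had it at 5.2% and starts of divergent regions at 9.85%. The adjusted p of this exact test ran from 0.00827 to 0.843 over the alternatives and missed the threshold in 7 of them, among them the removal of replicate 1 or of replicate 3 (adjusted p = 0.359 and 0.677). The initiator stood at 9.83% against 15% (two-sided exact test, adjusted p = 0.174), the downstream promoter element at 17.5% against 22.6% (adjusted p = 0.215) and the TATA box at 0.855% against 3.37% (adjusted p = 0.174). GAGAGAG stood before 12.8% against 13.1% of starts (two-sided exact test, adjusted p = 1).

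The nearest starts belonged to 234 of 13945 protein-coding genes (1.68%), a number that equals the number of regions by coincidence, as some regions share a gene and some starts belong to more than 1. Of 28 gene lists, 16 held at least 1 such gene, and 31 of their 1160 distinct genes did (2.67%). The counts describe the regions and were not tested. Shares were 4 of 19 genes of the Polycomb list, 3 of 20 of the insulator and promoter list and 3 of 22 of the ecdysone list, and 1 of 28 (3.57%) of the trithorax and remodeler list. The 4 Polycomb genes were ph-p and Psc of PRC1, Su(z)12 of PRC2, and Su(z)2, the paralog of Psc. Signals were 86.5, 66.7 and 71.2 at Psc and 83.6, 75 and 56 at Su(z)12, well under those of ph-p, and Su(z)2, named after its values were seen, had 47.8, 41.1 and 66.8. CAACAA stood at the summits of Psc and Su(z)2 and not at those of ph-p and Su(z)12.

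Of 22 genes of the ecdysone cascade, the response to the steroid that times fly development, 3 had a region. They were Eip75B, Eip78C and tai. Eip78C, a related nuclear receptor gene, had signals of 71.1 and 65.8 in replicates 1 and 3. The gene tai, which encodes a coactivator of the ecdysone receptor, had 85.1 and 46.4 in replicates 1 and 2. CAACAA stood at the strongest summit of each gene, against 44.4% of all 234 summits, but not at the second, weaker region of Eip75B. Of 20 genes of insulator and promoter proteins 3 had one. Trl, which encodes the GAGA factor, had signals of 151, 119 and 111 at 100 bp, without the word. Dref had 54.8, 46.8 and 42.1 at 25 bp with the word, and pita, a zinc finger insulator gene, had 63 in replicate 1 and 63 in replicate 3 without it.

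Among signalling and cell architecture, 2 of 16 Hippo genes had a region, where 1.68% of all protein-coding genes did (not tested). At ex, an upstream regulator of the pathway, signals were 120, 56.2 and 64.7 with a tandem run, and at Mer, which encodes merlin, 98.3, 71 and 71.9 in an intron without the word. Of 39 genes of actin, adhesion and junctions 4 had one. The polarity gene dlg1 had signals of 117, 146 and 87.9 and sqh, which encodes the regulatory light chain of non-muscle myosin, 118, 125 and 77. Neither held the word, whereas scrib held a tandem run, and sdt of the Crumbs complex, named after its values were seen, had 56.3, 41.5 and 20.6 without it. The EGF ligand gene spi had signals of 128, 95.3 and 141 in an intron without the word, and the muscle factor gene Mef2 had 68.5, 59.2 and 79.9 at 29 bp with it.

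Of 92 genes of cytoplasmic ribosomal proteins, 4 had a region, where 1.68% of all protein-coding genes did (not tested). An upstream region was found for 16 of the 92. The 1.68% does not cover upstream regions, which numbered 804, and their share over all genes is not given here. RpL26, RpS15Aa, RpS7 and, named after its values were seen, RpS23 had signals from 39.8 to 80.7. None of the 4 summits held CAACAA, against 44.4% of all 234, a difference that was not tested. Of 39 translation factor genes, 2 had a region, both in introns and without the word: pAbp, which encodes the poly(A)-binding protein, with 172, 112 and 97.5, and eIF3h with 115, 81.5 and 83.8. Of 42 cell cycle genes 2 had one, Dp, which encodes the partner of E2F, with 141, 93.7 and 91.2, and CycA. Single genes of other lists were Akt, Mad, kto (a Mediator kinase module subunit, in 2 lists), Lpin (a phosphatidate phosphatase) and ND-B22 (a subunit of respiratory complex I). The last had signals of 67.4, 58.5 and 65.2 and a run of 4 copies 14 bp from a summit 15 bp downstream of the start.

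The 12 lists with no such gene were those of mitochondrial ribosomal proteins (73 genes), Hox and homeotic genes (17), segmentation (28), the Notch pathway (22), neuronal fate and axon guidance (28), heat shock proteins (24), hemocyte and immune genes (38), the circadian clock (15), Aef1 with its reported targets (6), the Wnt and Hedgehog pathways (31), chemosensory receptors (230) and cuticle proteins (88). As only 1.68% of all protein-coding genes had a region, a list of few genes can easily hold none. These absences were not tested. Several of these lists had genes with upstream regions, as 4 Hox and homeotic genes and 6 Notch pathway genes did. The share of all genes with an upstream region is not given here, so these counts have no background beside them.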

How the data were processed

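Peaks of Aef1-eGFP were taken from the lists that the authors deposited for each of 3 biological replicates on dm6 (3495, 3126 and 2942 peaks). Which aligner and peak caller made them was not stated in the labels or lists. Peak signal is the value that the authors deposited, on an unstated scale, and it ranks and describes peaks within a list. The deposited score is the authors' scaled IDR, with the lists held at an IDR of about 0.01. The authors' ranked lists give −log10 of the IDR and served as alternatives, with 4 deposited lists of the whole series used to describe overlap. Read depth is unknown and no interval uses it.

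Peaks on arms 2L, 2R, 3L, 3R, 4 and X were merged at 1 bp overlap. Starts were the 19253 distinct starts of 13945 protein-coding genes in Ensembl release 115 (BDGP6.54, dm6 coordinates), and sequence came from the dm6 reference in NCBI's copy. Motifs were searched in 101 bp around the summit and around points 500 bp to either side, on both strands, and 10 of them at their usual place from the start. Summit and flanks were compared by exact McNemar tests, regions by Fisher's exact tests and strands by exact binomial tests, all two-sided. Adjusted p are Benjamini-Hochberg values over the motifs, elements, words or gene-structure features (further start and long first intron) of a comparison, at 0.05. Intervals on shares are Clopper-Pearson 95% intervals and take in counting error alone.

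Named are the 20 regions of lowest mean rank, up to 3 genes for each of 28 gene lists (43 list entries matched no annotated gene), the 10 regions with the nearest CAA run, and 3 regions on either side of each limit, with multicopy genes left out. An item that this rule names is not reported here. Regions on 1 arm are given without sequence. The regions and lists were chosen with earlier results of these data known. Alternatives were regions in 3 replicates, leaving out each replicate, other IDR limits, a 100 bp overlap, 1 start per gene, other promoter limits, windows and flanks. The tests were checked on simulated data. The work was done in Python 3.11.15 with SciPy 1.17.1 for the tests, pandas 2.3.3 and numpy 2.4.6 for the tables and matplotlib 3.10.9 for the plots.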

Additional observations from a re-analysis of the deposited data

How the results depend on the processing

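The comparisons of CAACAA and its tandem with the flanks (13 alternatives) and with upstream regions (12 alternatives) kept their direction and passed the threshold in every alternative run, with ratios to the flanks of 2.33 to 4.32 for CAACAA and 6 to 32.7 for the tandem. The number of regions was 145 when a peak in 3 replicates was required, 155 at an IDR of 0.001 and 364 with a promoter limit of 1000 bp. Motifs that differed from upstream regions numbered 2 among regions in 3 replicates and in windows of 25 bp, and 2 to 5 with each replicate left out. Motifs that differed from divergent regions numbered 3 in windows of 25 bp, 4 with a limit of 250 bp, 8 with a limit of 1000 bp, 9 in windows of 100 bp and 6 to 8 with each replicate left out, with the run of 8 A missing from the calls in 9 of 12 alternatives. Elements at starts that differed numbered 0 among regions in 3 replicates, at an IDR of 0.001 or 0.05, with a limit of 250 bp and within 60 bp of the start, 0 to 2 with each replicate left out, 2 with 1 start per gene and 3 with a limit of 1000 bp. The coding-strand share was 56.9% (exact binomial p = 0.401) among regions in 3 replicates, 54.1% to 59.4% with each replicate left out, 61.5% (p = 0.0817) at an IDR of 0.001, 58.4% (p = 0.111) with 1 start per gene and 56.5% (p = 0.336) with a limit of 250 bp. The exon to intron ratio was 1.41 with 1 start per gene and 1.63 with a limit of 250 bp, both past the threshold no longer. The share in 3 replicates was lower than that of upstream regions by a smaller margin with 1 start per gene, at -2.08 points. The share on the X against upstream regions gave ratios of 1.18 to 1.38 with each replicate left out. The ratio for a further start was 1.44 at an IDR of 0.001, 1.03 with a limit of 1000 bp, 2.45 with a limit of 250 bp and 3.19 with 1 start per gene. The ratio for a long first intron was 0.796 (Fisher's exact test, adjusted p = 0.0216) with 1 start per gene and 1.14 (adjusted p = 0.0462) with a limit of 1000 bp. It was 0.993 to 1.1 with each replicate left out, below 1 without replicate 1. For regions in 1 replicate, an alternative added after the data were seen, the tandem ratio to upstream regions was 2.47 to 4.07 with each replicate left out. The causes were not tested. With 1 group no replicate block can be fitted: No paired analysis was possible because the study has 1 group.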

Other observations

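Of the 234 regions 57 lay on the X (24.4%, exact 95% interval 19 to 30.4%), against 159 of 804 upstream regions (19.8%) and 17% of starts. The ratio of 1.23 to upstream regions did not pass the threshold (Fisher's exact test, two-sided, p = 0.143), and without replicate 3 it was 1.38 (p = 0.0419). No region lay on arm 4.

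Several genes had a region behind each of 2 starts, named after their values were seen. The second region of ph-p, in the 5′ UTR 90 bp downstream of another start, had signals of 55.3, 52.3 and 50.9, against 331, 344 and 267 at the first. The second region of Eip75B, 35 bp downstream of another start, had signals of 85.6, 89.2 and 68.9 and no CAACAA, against 315, 195 and 231 with the word at the first. At CrebB, which encodes a transcription factor of the cAMP response, the summit 341 bp downstream of its start held a run of 4 CAA copies, with signals of 42.3 and 69.2 in replicates 1 and 3, and the one 66 bp downstream of another start held no CAACAA, with 85.8, 42.4 and 83.4. AGO2, which encodes the Argonaute protein of RNA interference, had a run of 4 copies in coding sequence, 7 bp from a summit 324 bp downstream of the start, with signals of 74, 57.3 and 85.4.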
